A study of Drosophila melanogaster with 2 samples.

Results

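Loci that hold several CG11696-eGFP peaks within a few kilobases of one another are described here. CG11696, of Drosophila melanogaster, is predicted to be a zinc finger protein, and its peaks were mapped by chromatin immunoprecipitation and sequencing (ChIP-seq). Of 3143 peaks of the conservative list on the named chromosomes, 246 overlapped a peak of higher signal value and were dropped, which left 2897. Summits, the highest points of the peaks, were chained along each chromosome wherever the gap to the next was at most 10 kb, and peaks in chains of 3 or more were kept. That gave 266 loci with 1029 clustered peaks, 35.5% of the 2897. The members were thus chosen by called positions and by signal value, both measured in these samples, so their spacing and number are a description and no test was made of them.

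All samples were one group, whole embryos of a transgenic strain that carried CG11696 fused to eGFP, collected at 0 to 24 h of development, in 2 biological replicates. The fusion was precipitated with an antibody against GFP from sonicated chromatin, and both replicates shared the transgene, so there was no contrast of conditions. The labels used here do not give the promoter that drives the fusion. The remaining 1868 peaks, 710 in 355 chains of 2 and 1158 single ones, are the background against which the clustered peaks are set. In whole embryos, binding in fewer cells and weaker binding in each cell cannot be told apart.

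Zinc finger proteins of this kind read DNA with arrays of fingers that each contact a short stretch of bases, so a protein with many fingers can recognise a long sequence. In flies many genes with elaborate expression have several separate regulatory regions spread over introns and upstream DNA, and a factor can occupy more than 1 of them. ChIP-seq peaks also occur at open chromatin without a sequence for the factor, so the presence of a peak does not by itself show direct contact.

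A recurrent sequence was searched for from 50 bases before to 50 bases after each summit, because it bears on which peaks of a locus carry a common sequence. A weight matrix, a table of base preferences at 30 consecutive positions, was learnt on the other peaks alone and then applied to the clustered ones. The 11 matches in the loci named below are printed from RefSeq Release 6, 1-based on dm6, 5′ to 3′ on the strand of the match. Capitals mark bases that equal the matrix at the 11 positions where 1 base made up 80% or more of the sequences it was learnt on.
CG33116 promoter, chr2L:19533417-19533446, minus strand: aacgaaACAgcgcaGcgCgcaaaAaTAGtg
aru promoter, chr2L:868455-868484, plus strand: ctctctACActagcGGgCAccgcAaTAGaa
S intron, chr2L:1063130-1063159, minus strand: acccatACAcccgaGGtCAcaatAtTAGga
gce promoter, chrX:15297426-15297455, minus strand: gccaccACActtgcGGtCAcacaAacAGat
stv upstream, chr3L:13476451-13476480, minus strand: acgcgtACAgctctGGtCAacatAaTAGgg
hng3 upstream, chr3L:756467-756496, plus strand: aaacgcACAgccatGGgCAgaatgcTAGca
drongo intron, chr2L:847205-847234, plus strand: aaacatACAatcgtGacCAcagaAaTAGct
Rtnl1 intron, chr2L:5003289-5003318, minus strand: aacggcACAgtgccGtcCActacAgTAGaa
gce upstream, chrX:15297032-15297061, plus strand: cactgcgCAcctgaGGtCgcaattgTAGca
ref(2)P intron, chr2L:19543304-19543333, plus strand: tatggtACAaacgtGGtCAacatAtTAGat
chinmo upstream, chr2L:1639386-1639415, minus strand: cagcgcACAgtcatacgCAagcaAcTAGat

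The 11 marked positions of the matrix spell an ACA toward the left end, a GG and a CA in the middle, and an A and a TAG near the right end, with free bases between, and most of the printed sites depart from them at 1 or more positions. In the matrix the bases of the ACA were held by 97.6%, 99% and 99% of the 209 windows it was learnt on. The 2 bases of the GG were held by 90.0% and 84.7%, those of the CA by 84.7% and 83.7%, the single A by 80.4%, and those of the TAG by 95.7%, 95.7% and 88.0%. The sites of aru, S, stv and ref(2)P hold all 11 of the marked bases, and the upstream site of gce holds 8.

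Many of the strongest clustered peaks held no match, and 3 of their summit windows are printed for comparison, on the plus strand and with no capitals. All 3 summits lie in introns of a gene named below, and their windows are 22.8%, 40.6% and 21.8% G or C.
Dok, chrX:7324960-7325060: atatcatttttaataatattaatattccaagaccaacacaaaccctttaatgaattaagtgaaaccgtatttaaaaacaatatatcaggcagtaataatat
Raf, chrX:2300630-2300730: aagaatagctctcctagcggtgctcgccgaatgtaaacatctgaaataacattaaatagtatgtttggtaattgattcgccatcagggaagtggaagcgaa
simj, chr3L:10678692-10678792: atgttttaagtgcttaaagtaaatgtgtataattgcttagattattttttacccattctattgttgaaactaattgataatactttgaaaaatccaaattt

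A match of the matrix was present in 131 of 1029 clustered windows (12.7%, 95% Wilson interval 10.8 to 14.9%), against 209 of 1868 windows of other peaks (11.2%, 9.84 to 12.7%) and 11.7% of all 2897 peaks. The other peaks were used to learn the matrix and the clustered ones were not. Windows centred 300 bp to either side of the clustered summits held a match in 14 of 2058 cases (0.68%), and the threshold was set so that 1% of the equivalent windows of other peaks passed. Centred 100 bp before and after the clustered summits, the share was 5.73% and 4.18%, and at 200 bp it was 1.26% and 1.55%. Within the summit window itself the match had no favoured place: 70.2% of matches had their centre within 25 bases of the summit, and such centres are 69.4% of those possible. Of the 131 matches, 56 lay on the plus strand.

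The pooled signal value had a median of 164 over clustered peaks with a match and of 113 over the 898 without one. The difference of medians was 0.48 on the log2 scale in replicate 1 and 0.62 in replicate 2, a mean of 0.55 ± 0.099 (SD, n = 2). Ordered by signal value, the lowest quintile of clustered peaks held a match in 5.34% of windows (3.01 to 9.31%), and the next quintiles in 7.77%, 13.2% and 18.4%. The highest quintile reached 18.9% (14.2 to 24.8%), so most strong clustered peaks had none. Matches were at 15.9% of clustered summits in introns (13 to 19.3%), 10.8% of intergenic ones (6.52 to 17.3%) and 7.69% of those within 500 bp of a transcription start site (5.34 to 11.0%). At least 1 match was found in 98 of 266 loci, 30 loci had 2 or more, and 3 loci had 3 or more. Inside a locus, the strongest peak held a match in 20.7% of cases (16.2 to 25.9%) and the weaker ones in 9.96% (8.03 to 12.3%).

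**Figure D1:**
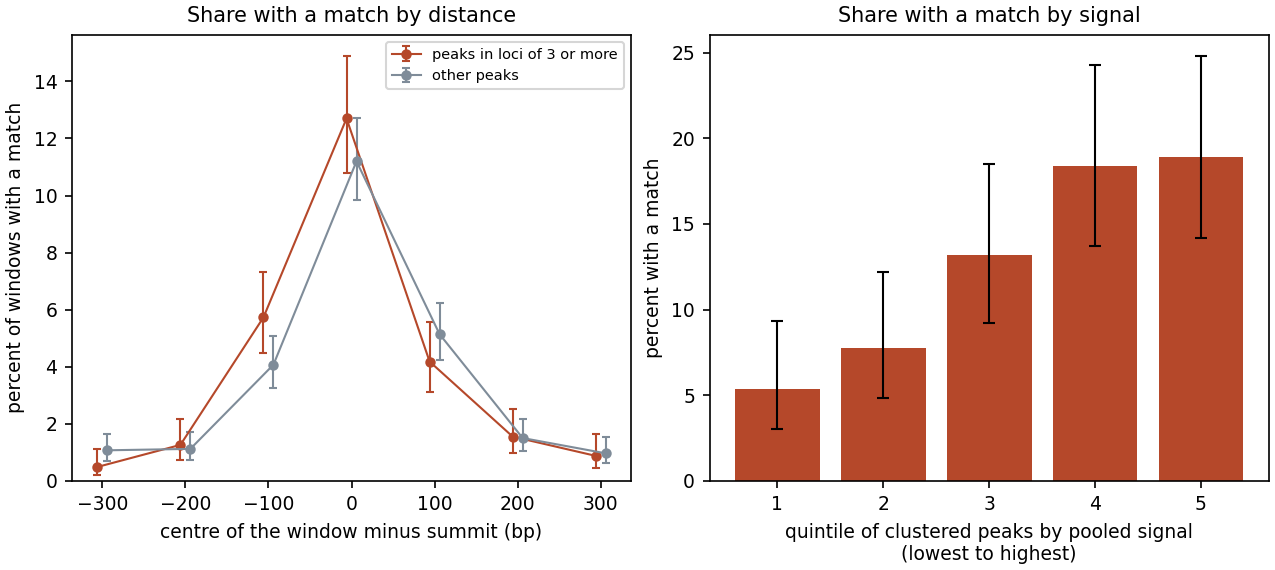
Left, percent of windows (50 bases to either side of their centre) with a match of the matrix (y) against the distance of the window's centre from the summit in bp (x), for peaks in loci of 3 or more and for other peaks; right, percent of clustered summit windows with a match (y) by quintile of pooled signal value (x, lowest to highest). Bars are 95% Wilson intervals; the share of clustered windows stands at 12.7% at the summit and 0.486% and 0.875% at 300 bp, and at 5.34% in the lowest and 18.9% in the highest quintile.

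Most loci were small. Of the 266, 151 held 3 peaks, 65 held 4, 36 held 5 or 6, 10 held 7 or 8, and 4 held 9 to 12. The span between first and last summit ran from 1179 to 40050 bp with a median of 9456 bp. Neighbouring summits of a locus were 200 to 9962 bp apart (median 2877 bp), and 19.1% of the 763 gaps were 1 kb or less. At the edge of the rule, the widest gap kept was 9962 bp, between summits near CG32425 and BNIP3 with signal values of 152 and 98.9. The narrowest gap that ended a chain was 10022 bp, between summits near SMC6 and twin with signal values of 222 and 99.9. The next, 10028 bp, parted a summit near fz4 from one near CG4615, which belonged to a locus of 5 peaks with 4 summits in Sxl.

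**Figure D2:**
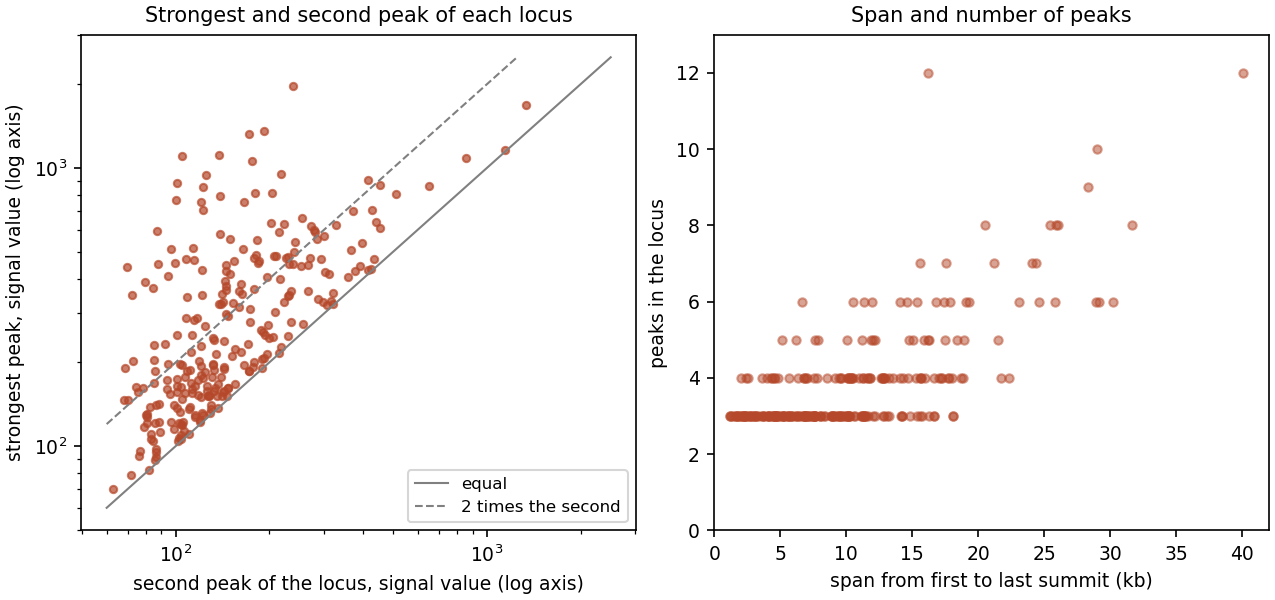
Left, pooled signal value of the strongest peak of each locus (y) against that of its second peak (x), both on log axes, with lines for equality and for 2 times the second; right, number of peaks in a locus (y) against its span in kb (x). Each of the 266 points is a locus; 90 of them reach the dashed line or lie above it, and spans range up to 40050 bp.

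Peak strength is given by the authors' signal value, in the units of their peak caller. The pooled list has larger values than the replicates, and values are compared within 1 list at a time. Clustered peaks had a median of 59.6 in replicate 1, against 56.8 for peaks in chains of 2 and 52.2 for single peaks. In replicate 2 the medians were 61.6, 59.6 and 57.1 in that order, and in the pooled list 120.1, 114 and 108. On the log2 scale the clustered median exceeded that of all other peaks by 0.16 in replicate 1 and 0.10 in replicate 2, a mean of 0.13 ± 0.043 (SD, n = 2). The quartiles overlapped widely: 42.2 to 95.1 for clustered peaks and 39.7 to 85.1 for other peaks in replicate 1, and 44.0 to 104 against 41.7 to 90.0 in replicate 2.

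**Figure D3:**
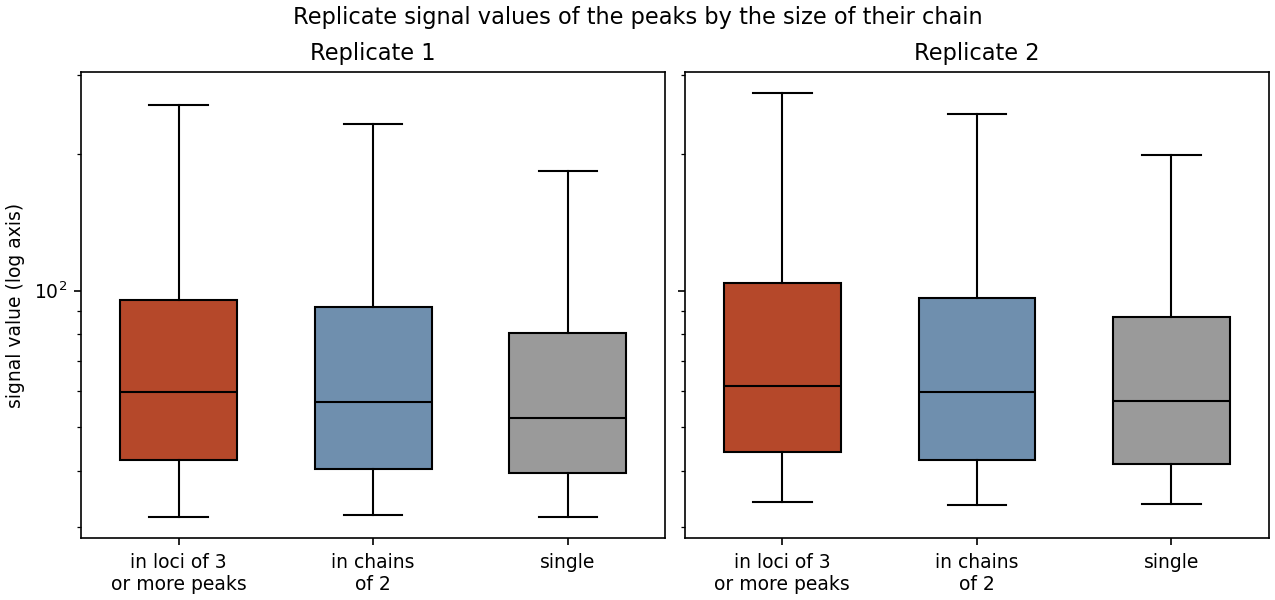
Signal value (y, log axis) in replicate 1 (left) and replicate 2 (right) for peaks in loci of 3 or more, in chains of 2 and single. Boxes are quartiles with the median, whiskers the 5th and 95th percentiles; the medians descend from left to right in both replicates, by less than the height of a box.

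The strongest peak of a locus was a median of 1.57 times the second, at least 2 times the second in 90 loci (33.8%) and at least 5 times in 17, with a maximum of 10.5 times. By choice the highest of its locus, the leading peak held a median of 45.3% of the summed signal of its locus. Leading peaks had a median signal value of 245 in the pooled list and the 763 other members 101.5, against 108 for single peaks. Against single peaks the other members differed by -0.01 on the log2 scale in replicate 1 and -0.16 in replicate 2, a mean of -0.08 ± 0.11 (SD, n = 2). The choice of members lowers this value, since the highest peak of each locus was removed and no single peak was. The leading peak was also the highest of its locus in 223 loci by replicate 1 values and in 233 by replicate 2 values. In the 151 loci of 3 peaks, it was the middle one in 49.

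Peaks of a locus were hardly more alike in signal than peaks of different loci. The share of the variance of log2 signal value that lay within loci was 71.6% in the pooled list, 69.9% in replicate 1 and 70.8% in replicate 2, where membership unrelated to signal would give 74.2%, 73.8% and 74.1% by degrees of freedom. The intraclass correlation, which is 1 for identical members and 0 for unrelated ones, was 0.05 in replicate 1 and 0.04 in replicate 2 for loci, and 0.12 and 0.13 for chains of 2. For the log2 distance to the nearest start site it was 0.35 for loci and 0.47 for chains of 2. Neighbouring summits of a locus differed by a median of 0.76 in log2 signal value in replicate 1 and 0.80 in replicate 2, against a median of 0.25 between the replicates at the same clustered peak. Summits 1 kb apart or less differed by 0.72 in replicate 1 and 0.55 in replicate 2. For gaps over 1000 and up to 2000 bp the values were 0.88 and 0.89, and up to 5000 bp 0.69 and 0.75. Summits 5 to 10 kb apart differed by 0.82 and 0.90, so the difference did not rise steadily with distance.

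Each replicate also had a list of its own that passed the authors' threshold on the irreproducible discovery rate, a measure of how well ranks repeat between data sets. Of the clustered peaks, 55.6% overlapped a peak of both replicate lists (52.5 to 58.6%), against 50.9% of other peaks (48.6 to 53.1%) and 52.5% of all peaks. With loci formed in 1 replicate, the excess in the list of the other was 1.25 percentage points without replicate 1 and 0.635 without replicate 2. The 4.73 points here are a different measure, of presence in both lists over the conservative peaks. Of those, 66.3% of clustered and 60.4% of other peaks were in the replicate 1 list, and 68.7% and 64.2% in the replicate 2 list. In neither list were 20.6% of clustered peaks and 26.2% of other peaks. Leading peaks were in both lists in 90.6% of cases and the weaker members in 43.4%. The choice of members favours this difference, since leading peaks were picked by signal value in the pooled reads of both replicates. The rule applied to the replicate lists gave 543 clustered peaks in 146 loci for replicate 1 and 570 in 152 loci for replicate 2. Of the 266 loci, 131 overlapped a locus of replicate 1 (49.2%), 133 a locus of replicate 2 (50%) and 94 a locus of both (35.3%), while 18 had no peak in both lists. Over the 1002 clustered peaks with a value in both replicates, replicate 2 exceeded replicate 1 by a median of 0.08 on the log2 scale with an SD of 0.41, against 0.09 and 0.40 over 1825 other peaks.

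Clustered summits lay in introns more often, and at promoters less often, than other summits. Within 500 bp of an annotated transcription start site (TSS) were 34.1% of clustered summits (31.3 to 37.1%), against 44.6% of other summits (42.4 to 46.9%) and 40.9% of all. Introns away from a TSS held 49.5% of clustered summits (46.4 to 52.5%) and 38.0% of others (35.8 to 40.2%). Intergenic DNA held 12.6% and 14.0%, and coding exons 0.68% and 0.642%. Leading peaks were at a TSS in 38.3% of loci (32.7 to 44.3%) and the weaker members in 32.6% of cases (29.4 to 36.0%). No summit was at a TSS in 74 loci, while 96 loci had summits at the TSSs of 2 or more genes. All intervals cover the counting of called peaks only, and treat the peaks as independent. In position they were not: for the distance to the nearest TSS the intraclass correlation was 0.35 in loci and 0.47 in chains of 2. The intervals of the position shares may therefore be too narrow.

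**Figure D4:**
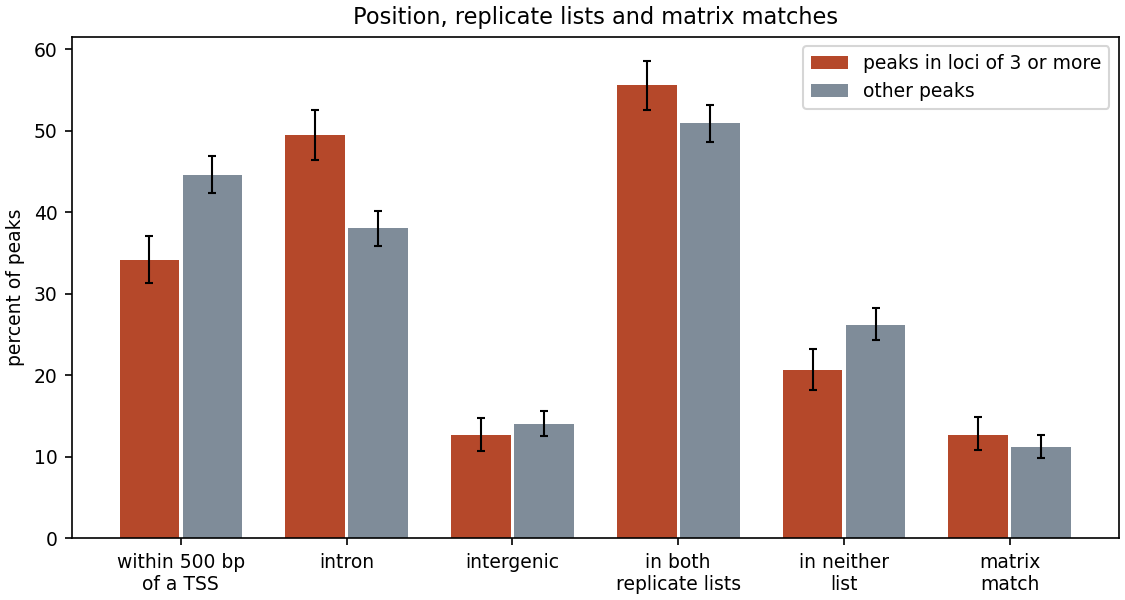
Percent of peaks (y) in 3 position classes, in the lists of the replicates and with a match of the matrix (x), for peaks in loci of 3 or more and for other peaks. Error bars are 95% Wilson intervals; the clustered peaks stand at 34.1% at a TSS and 49.5% in introns, against 44.6% and 38.0% for other peaks.

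Long genes hosted many of the loci. In 91 of 266 loci (34.2%, 28.8 to 40.1%) all summits lay in 1 protein-coding gene, and in 26 no summit lay in a protein-coding gene. Genes that held a whole locus had a median length of 31459 bp, against 12933 bp for genes that held other summits and no clustered one, and 2164 bp for all 13968 protein-coding genes. The gene that held most summits was at least 20 kb long in 111 of 266 loci, while 1020 of all 13968 protein-coding genes were that long. The choice favours long genes, since ties in the number of summits went to the longer gene. CHES-1-like held 12 clustered summits, CG1677 11, Drak 9, Raf 8 and ftz-f1 8. A longer gene offers more room for summits, and the part of length in these counts was not tested.

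The 2 largest loci, of 12 peaks each, were built differently. The chinmo locus on chromosome 2L spanned 40050 bp, and 10 of its summits were intergenic, before the start of chinmo, which encodes a BTB zinc finger protein of neuronal temporal identity. The highest peak, 3672 bp from the TSS of lncRNA:CR45695, had a signal value of 329.8 in replicate 1 and 303 in replicate 2, and its second, 6813 bp from the TSS of lncRNA:CR44603, 192 and 247. The lowest of the pooled list, which carries the chinmo site printed above, had 33.2 and 32.2. Thus 2 high peaks stood among 10 whose values in each replicate were under 100, and 8 of the 12 were in both replicate lists.

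The 12 summits of the second locus all lay inside CHES-1-like, a forkhead transcription factor gene on chromosome X, over 16183 bp. An intronic peak 3176 bp from a TSS had values of 173 in replicate 1 and 248 in replicate 2, and one 753 bp from the TSS of lncRNA:CR43287 had 190.0 and 214. The summit at a CHES-1-like TSS, 344 bp away, had 71.3 and 57.1. Here 5 of 12 peaks were in both replicate lists, and none of the 12 held a match of the matrix.

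The locus of 10 peaks on 2L ran over drongo, CG13949, aru and PNUTS, the last a nuclear targeting subunit of protein phosphatase 1. The highest peak lay 138 bp from a TSS of aru, an Eps8-like adaptor, with 412 in replicate 1 and 394 in replicate 2. The second, near lncRNA:CR45345, had 257 in both. The summits at the TSSs of CG13949 and PNUTS were low, with 59.9 and 37.6 for CG13949 and 43.2 and 40.9 for PNUTS. The 2 matches of this locus lay at its highest peak and at a drongo intron peak of 52.2 and 84.9.

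The Raf locus on X had 9 peaks, of which 8 lay in Raf, the kinase that passes the signal of Ras to the MAP kinase cascade. Its highest peak lay in an intron 5214 bp from the Raf TSS, with 476 in replicate 1 and 603 in replicate 2. The second peak within Raf, in an intron at 6890 bp, had 206 and 279.6. The remaining peak outside Raf was at the TSS of CG2865, 342 bp away, with 447 and 415. The summit nearest to the Raf TSS, at 764 bp in the 5' UTR, had 55.8 in replicate 2 and no value in replicate 1. Both replicates thus had high peaks in the Raf intron and at the neighbouring gene, and low ones toward the far end of the locus.

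Of the 5 loci of 8 peaks, 4 are described, all on 3L. In the first, 7 summits lay in simj, which encodes a p66 subunit of the NuRD chromatin remodelling complex. Its 2 high peaks, both intronic, had values of 432 and 300.5 in replicate 1 and of 398 and 298 in replicate 2, while the other 6 members had pooled values of 67.5 to 185. The second locus, from emc to beyond hng3, was high at its far end, where 2 intergenic summits 11005 and 11605 bp from the tRNA:Ile-TAT-1-2 gene had 141 and 195 in replicate 1 and 179 and 220.1 in replicate 2. The 2 peaks in emc, the gene of a helix-loop-helix inhibitor of proneural proteins, had 29.0 and 38.9 in replicate 1 and 45.6 and 39.4 in replicate 2.

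The other two of these loci held no summit in a protein-coding gene. One lay around CG7560, with 7 intergenic summits, and was led by a peak in an exon of a noncoding gene 519 bp from the TSS of lncRNA:CR44363, with 127 in replicate 1 and 148 in replicate 2. The other ran from lncRNA:CR43423 and lncRNA:CR43334 to the TSS of Rev1, a translesion DNA polymerase gene. The Rev1 summit was highest in the pooled list, with 63.4 in replicate 1 and 84.5 in replicate 2, and the lowest of that list, at the TSS of lncRNA:CR43334, had 36.2 and 31.2. Replicate 1 was highest at the summit before Rev1, with 90.1, where replicate 2 had 53.4.

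**Figure D5:**
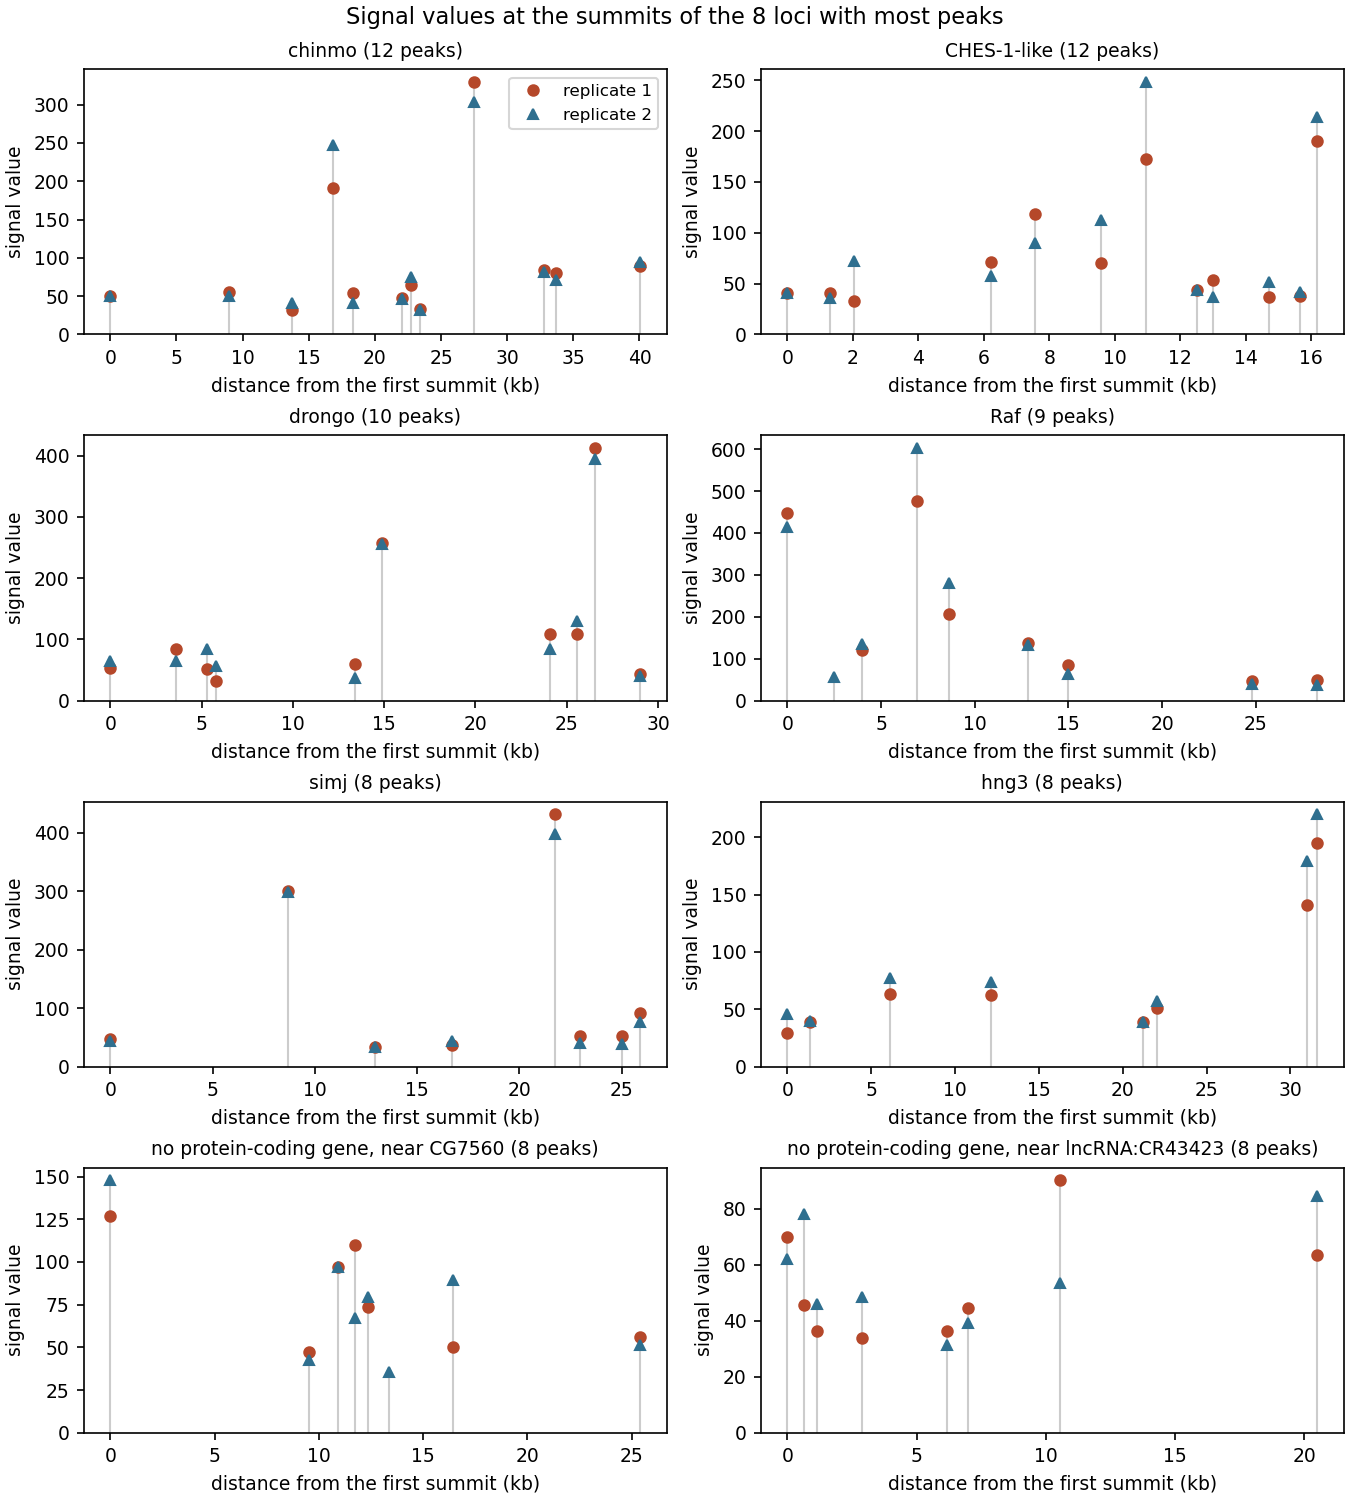
Signal values (y) of each peak in replicate 1 (circles) and replicate 2 (triangles) against the distance of its summit from the first summit of the locus in kb (x), for the 8 loci with most peaks; panels are titled with the gene that holds most summits. The replicates place the same 1 or 2 high peaks in the chinmo, drongo, Raf, simj and hng3 panels, for example 329.8 and 303 in the chinmo panel, and a peak without a circle had no value in replicate 1.

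The loci of highest median signal differed from the largest ones. On 2L, the promoters of CG10165 and CG33116 had peaks of 529.5 and 509 in replicate 1 and of 611 and 619 in replicate 2. The remaining summit, in ref(2)P, the fly homolog of the autophagy adaptor p62, had 44.0 in replicate 2 and no value in replicate 1. It joined the locus across a gap of 9931 bp, close to the largest allowed. Both the CG33116 and the ref(2)P peaks held a match, one at the top of the signal range of the locus and the other at its foot.

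The CG1677 locus on X, of 5 peaks over 12043 bp, had the highest summed signal of the one-gene loci. CG1677 spans 124709 bp and holds Dok, which encodes a docking protein of tyrosine kinase signalling, and CBP. The peak nearest to CBP, 299 bp from its TSS, had 845 in replicate 1 and 815 in replicate 2, and the one at Dok had 667 and 662. A second peak near CBP had 426 and 395, and the other two members had 53.6 and 29.3 in replicate 1 and 61.3 and 48.2 in replicate 2. No member held a match.

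At ph-p, which encodes the Polyhomeotic subunit of Polycomb repressive complex 1, 4 of the 5 peaks lay inside the gene. The highest was 509 bp from the nearest of the ph-p TSSs with 444 in replicate 1 and 466 in replicate 2. The one 462 bp from another of these TSSs had 214 and 213. The other one lay in Pgd, a pentose phosphate pathway enzyme gene, with 81.3 and 112. All 5 were in both replicate lists.

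The osa locus on 3R had its 3 summits in osa, which encodes a subunit of the Brahma chromatin remodelling complex. Its peaks had 173, 244 and 103 in replicate 1, and 276 and 109.8 in replicate 2 for the last 2, the first having no value there. At trbl, the tribbles pseudokinase gene on 3L, peaks of 194 and 219.7 in replicate 1 and of 234 and 223 in replicate 2 stood beside one of 51.9 and 70.3. The Rtnl1 locus on 2L, at the gene of a reticulon-like protein of the endoplasmic reticulum, had summits at 3 TSSs with 208, 415 and 93.1 in replicate 1 and 235, 411 and 114 in replicate 2. Its printed site lay at the lowest peak, with 47.7 and 46.3.

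In the remaining high-median loci all values were above the clustered median of their replicate. Near jp, a junctophilin gene, lncRNA:CR44149 and brwl on 2L, the peaks had 147, 145 and 90.8 in replicate 1 and 155, 179.6 and 82.2 in replicate 2. On 2R, peaks at GstE13, CG18659 and CG44286 had 264, 93.1 and 147 in replicate 1 and 318, 82.6 and 169 in replicate 2. Every one of these 6 peaks was in both replicate lists.

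The 5 loci of shortest span placed 3 summits within 1179 to 1568 bp. In Gli, which encodes the tricellular junction protein Gliotactin, the values were 62.4, 61.9 and 30.8 in replicate 1 and 56.3, 48.2 and 48.0 in replicate 2. In front of and at stv, the gene of a BAG family co-chaperone, they were 70.6, 78.5 and 48.5 in replicate 1 and 63.0, 91.0 and 51.9 in replicate 2. Pli, the gene of the fly Pellino ubiquitin ligase, had a dominant intronic peak of 395 in replicate 1 and 382 in replicate 2, beside peaks of 65.8 and 30.2 in replicate 1 and 126 and 39.0 in replicate 2. At gce, which encodes a receptor for juvenile hormone, the summit beside asRNA:CR44429 had 90.9 in replicate 1 and 96.6 in replicate 2, the promoter one 51.5 and 114, and the one in the 3' UTR of CG5877 59.3 and 66.5, and 2 of these 3 peaks held a match. Beside lncRNA:CR45737 the outer peaks had 63.2 and 52.9 in replicate 1 and 76.7 and 50.8 in replicate 2, and no replicate peak covered the middle summit itself.

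Of the one-gene loci with most summed signal, S and sbb remain. S (Star) encodes a membrane protein needed to export ligands of the EGF receptor, and all 6 summits lay in its introns on 2L. Its highest peak, which carries a printed site, had 286 in replicate 1 and 403 in replicate 2, and the next had 212 and 204. In sbb, a gene for a nuclear regulator of transcription on 2R, 7 intronic summits spanned 24066 bp, and 6 were in both replicate lists. The highest had 215 and 248, and the lowest 31.3 and 38.2. No member of the sbb locus held a match.

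Gene lists were read against the share of all protein-coding genes with a clustered summit inside the gene or within 500 bp of its TSS, which was 3.79% (529 genes), and 11.8% among the 1020 genes of 20 kb or more. In 4 of the 8 lists the median gene length was 20 kb or more, and for those the higher share is the nearer comparison. The gene complexes (Hox and other homeobox clusters, E(spl), achaete-scute and Iroquois) had 0 of 41 members, with a median length of 4205 bp. Signalling genes had 6 of 36 (16.7%, median length 20651 bp), ecdysone and nuclear receptor genes 4 of 25 (16.0%, 22386 bp), neural RNA-binding and fate genes 2 of 20 (10%, 53654 bp), adhesion and axon guidance genes 2 of 24 (8.33%, 45142 bp), muscle genes 2 of 17 (11.8%, 16232 bp), and chromatin and insulator genes 4 of 23 (17.4%, 5746 bp). The 93 cytosolic ribosomal protein genes, with a median length of 1318 bp, had 10 (10.8%), each with the summit at the TSS. The share of all genes at a TSS was 2.64%. In the other lists it was 11.8% for muscle (2 genes), 8.7% for chromatin (2), 5.56% for signalling (2), 5% for neural (1) and 4.17% for adhesion (1). For the ecdysone list and the gene complexes it was 0.

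Among signalling genes, the highest peaks after Raf were in aop, which encodes the ETS repressor Yan, with 94.4 in replicate 1 and 115.1 in replicate 2; in the Wnt receptor gene fz, with 83.0 and 76.3; and in N, the receptor Notch, with 57.9 and 71.6. The ecdysone list was led by ftz-f1, a nuclear receptor gene with 8 clustered summits, whose highest peak had 122 and 138. It was followed by ImpL2, the gene of a secreted insulin-binding protein, with 124 and 130.1, by the nuclear receptor gene Hr4 with 110.2 and 104, and by Eip75B with 75.8 and 35.6. The first 3 were close between replicates and Eip75B was not.

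In the chromatin list, ph-p was followed by Trl, the gene of GAGA factor, with 288 in replicate 1 and 244 in replicate 2, by osa, and by Psc, another subunit of Polycomb repressive complex 1, with 152 and 121. The neural list had brat, a translational repressor of neuroblast fate, with 205 and 183, and pum, an RNA-binding translational repressor, with 100.9 and 51.9. In the adhesion list fra, the netrin receptor gene, had 425 and 446 and the semaphorin receptor gene PlexA 76.9 and 95.1. The muscle list had mbc, which acts in myoblast fusion, with 70.3 and 98.3, and the actin gene Act87E with 37.6 and 33.1. The 4 chromatin genes, brat and fra had values above the upper quartile of clustered peaks in both replicates. The choice favours this, since each value is the highest clustered peak of its gene and the genes named lead their list. For comparison, the strongest peaks of all loci had a median of 113.7 in replicate 1 and 130.3 in replicate 2.

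Among the 10 ribosomal protein genes, RpL34b had 138 in replicate 2 and no value in replicate 1, RpL8 had 110.0 in replicate 1 and 71.5 in replicate 2, RpL27A 74.8 and 86.6, and RpL3 84.4 and 44.0. The other 6 had pooled values of 71.2 to 139. RpL34b in replicate 2 and RpL8 in replicate 1 lay above the upper quartile of clustered peaks. Here too the choice favours this, since the 4 genes with values given have the highest pooled values of the list. Of the 9 genes with a value in both replicates, 7 were lower in replicate 2 than in replicate 1. Over all clustered peaks the log2 ratio of replicate 2 to replicate 1 had a median of 0.08 and an SD of 0.41. The share of all clustered peaks that were lower in replicate 2 was not counted, so the 7 are a description of few peaks.

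Chromosome X held 66 of the loci and 25.9% of clustered peaks (23.3 to 28.6%), against 16.9% of other peaks (15.3 to 18.7%). For 3R it was 46 loci and 16.8% (14.7 to 19.2%), against 24.4% (22.5 to 26.4%). All peaks of a locus, or of a chain of 2, share a chromosome by the rule. These intervals treat them as independent and are therefore too narrow. The remaining loci were on 3L (59), 2L (53), 2R (41) and 4 (1). The CG11696 gene, itself on X, held no peak: the nearest summit lay 13292 bp away, in intergenic DNA, and belonged to a locus of 7 peaks that begins in Drak, a protein kinase gene. Drak is named here for that position, after its values were seen, and its 9 clustered summits fell in that locus and the one before it.

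Short consensus sequences listed by name were mostly as common or rarer at clustered summits than 300 bp away. GAGAG, read by GAGA factor, was in 10.7% of clustered windows and 17.5% of their flanking windows, and 10.7% of windows of other peaks. TATAAA was in 18.9% against 10.5% of flanking windows and 19.9% of other peaks, and TTTTTT in 28.5% against 20.6% and 27.1%. CAGCTG was in 4.37% against 5.54% and 5.51%, and TGACGTCA in 0 clustered windows. Both strands were read, and all of the listed words that were more common at summits than beside them by 3 percentage points or more were made of A and T. Clustered windows were 35.1% G or C on average and their flanking windows 42.4%, against 34.8% and 43.6% for other peaks. The 8-mers held by most clustered windows were A and T alone, led by AAAAAAAA in 8.36% of clustered windows, 8.21% of flanking windows and 9.15% of other peaks. The other leading 8-mers were all more common at clustered summits than in their flanking windows. AAAATATA, for example, was in 6.61% against 2.38%, and in 5.89% of other peaks, and AAATAAAA in 6.9% against 5.1%, and in 7.01% of other peaks.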

How the data were processed

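Peak lists of 2 biological replicates, and conservative and optimal lists of the series, were deposited by the authors on assembly dm6. Per the deposited descriptions they derive from alignments of these samples and a control. The deposited signal value is in units of the authors' peak caller; the sources used here give neither aligner, caller and settings nor read depth, so the depth is unknown. A replicate value is the highest signal of a peak in that replicate's ranked list that covers the summit; 27 of 1029 clustered peaks lacked one in a replicate. Overlap with the thresholded replicate lists needed 1 bp. Genes came from Ensembl release 115 without transposable elements (24111 TSSs), sequence from RefSeq Release 6. The matrix (30 positions) was started from the 10-mer with 5 or more G or C that most windows of other peaks held among those at 5 or more times the rate of flanking windows, 10 windows at least, and refined in at most 10 rounds; it was designed after the sequences were seen. The steps were tested on simulated data. The members, lists and rules were chosen with earlier results of these data known. Named were the 8 loci with most peaks, the 8 of highest median signal, the 5 shortest, the 5 one-gene loci of highest summed signal, their nearest-TSS and host genes, up to 4 members per gene list, and CG11696. Python 3.11.15, NumPy 2.4.6, pandas 2.3.3 and SciPy 1.17.1 were used. Alternatives were other gaps, chain sizes, lists, windows and overlaps.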

Additional observations from a re-analysis of the deposited data

How the results depend on the processing

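Clustered peaks kept their direction against other peaks in signal, TSS share and presence in the replicate lists under all alternatives run. With gaps of at most 5 kb there were 610 clustered peaks in 171 loci, the log2 signal difference was 0.19, the difference in presence in both replicate lists 8 percentage points, the within-locus share of variance 67.8% and the share of one-gene loci 44.4%. With 20 kb the values were 1692 peaks, 0.07, 3.56 points, 73.5% and 20.2%, and the TSS difference was -5.7 points. Chains of 4 or more gave 576 peaks in 115 loci, 77.1% and 28.7%. Peaks at or above the median signal gave 259 peaks in 75 loci, 0.18, 5.25 points, 70.9% and 28%. The optimal list gave a within-locus share of 74.4%, 50% reciprocal overlap a difference of 3.65 points, and 500 bp before the gene a one-gene share of 41%. The within-locus share for membership unrelated to signal, 74.2% in the main result, changes with the number of peaks per locus. It was not computed for these alternatives, so their within-locus shares do not show whether peaks of a locus were more or less alike. Leaving out a replicate gave 543 to 570 clustered peaks in 146 to 152 loci, with TSS differences of -16.8 to -11.8 points. The differences in presence in the list of the replicate left out were 0.635 to 1.25 points, and the one-gene shares 30.3 to 34.9%. Signal was not compared in those loci. The log2 differences of 0.10 to 0.16 and within-locus shares of 69.9 to 70.8% are the replicate values of the loci of the pooled list, as given above. The number of clustered peaks therefore depends on the gap, the chain size and the list. The excess in replicate lists was smallest where loci were formed in 1 replicate, but there it was counted in 1 list and over other peaks. The matrix was added after seeing the data: its match share at summits minus flanking windows was 12.1 points, 9.18 with a threshold passed by 0.5% of flanking windows, and 11.4 to 12.3 with another seed or learnt on the clustered peaks. No paired analysis was possible because there was 1 group. The read depth is unknown, so weak members, most of which were not in both replicate lists, may change with depth, which was not tested.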
